A study of Mus musculus with 23 samples.

Results

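The genes described here are 10 markers of microglia, the resident macrophages of the brain, measured in cultures grown as astrocytes, the star-shaped glia that support neurons. They are Csf1r, Cx3cr1, P2ry12, Trem2, Tyrobp, Itgam, C1qa, C1qb, C1qc and Aif1, a list of names matched to the Ensembl identifiers of the counted genes through a GRCm38 annotation, and they make up 10 of 38293 counted genes. The study asked how astrocytes of the postnatal mouse cortex respond in their RNA to T3, or triiodothyronine, the active thyroid hormone. RNA was sequenced in 23 libraries, each with a count of reads per gene. All cultures came from neocortex of mice at postnatal day 3, of a hybrid background with BALB/c+C57BL/6 and 129/OLa+129/Sv+ components, with no transgene or deletion in any group. Meninges and vessels had been dissected away, 130000 cells were plated in each well of 12-well plates, and cultures grew for 7 days in 10% serum without thyroid hormone. Per the labels' protocols more than 95% of the cells were astrocytes. Every group then spent 24 h in 0.1% serum without the hormone before the treatment began. The 6 groups were T3 at 10 nM for 24 h (3 libraries), the control at 24 h (4), CHX with T3 at 6 h (4), CHX alone at 6 h (4), T3 at 10 nM for 6 h (4) and the control at 6 h (4). CHX, given at 8 µg/ml and 30 min ahead of T3, is read as cycloheximide, a drug that blocks protein synthesis on the ribosome.

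Microglia enter the brain early in development, survive on signals through the Csf1r receptor, and remain as a minor companion of astrocytes in most cultures of dissociated cortex. They sense neurons and damage through Cx3cr1, P2ry12 and the Trem2 and Tyrobp receptor pair, and they are the main brain source of C1q, the protein complex that starts the classical complement cascade and tags synapses and debris for removal. Astrocytes in turn make ligands of microglial receptors, among them the survival factor Csf1 and the chemokine Cx3cl1.

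Libraries held 13843040 to 22997873 gene counts, with a median of 17987719. The listed astrocyte genes Gfap, an intermediate filament, Slc1a3, a glutamate transporter, and Sox9, a transcription factor, lay at 2320 to 5630, 1390 to 2190 and 356 to 554 CPM (counts per 1000000 counts of the scaled library), while the astrocyte markers S100b and Gjb6 stayed at no more than 8.05 and 2.11 CPM. The summed level of 10 markers of other leukocytes was 0.054 to 0.811 CPM per library, and S100a9, Ly6g and Ms4a1, which mark neutrophils and B cells, had no count in any library. The 8 markers of macrophages at the brain's borders summed to 2.64 to 11.0 CPM, with no count of Cd209f. The lane named in the deposited files was 5 for all 6 h control and 6 h T3 libraries and for CHX replicates 1 to 3, and 6 for CHX replicate 4, all CHX with T3 libraries, all 24 h controls and 24 h T3 replicates 1 and 2. Replicate 3 of 24 h T3 was on lane 7. Among the 24 h controls, replicates 2 and 4 stood apart, with member sums of 97.6 and 119 CPM against 65.0 and 50.8 CPM in replicates 1 and 3, so results that use these controls are also given without both. Over all genes 24 h T3 replicate 1 stood furthest from its group, with a chi-square over its degrees of freedom of 30.53 and 38.4 against replicates 2 and 3, where that pair had 2.72 and replicate pairs of the other groups at most 16.74. The labels do not say whether replicates were separate cultures or animals. The p-values therefore cover only the spread among libraries, which may be technical.

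The 3 genes of C1q lie side by side on chromosome 4, all on the minus strand. C1qa (ENSMUSG00000036887) spans 136895917 to 136898803, C1qc (ENSMUSG00000036896) 136889804 to 136893065 and C1qb (ENSMUSG00000036905) 136880129 to 136886187 in GRCm38, within a stretch of 18675 bases. Trem2 (ENSMUSG00000023992, chromosome 17, 48346401 to 48354147, plus strand) and Tyrobp (ENSMUSG00000030579, chromosome 7, 30413760 to 30417585, plus strand), a receptor and its adaptor, are on different chromosomes. Itgam (ENSMUSG00000030786) lies on chromosome 7 at 128062640 to 128118491, plus strand, and Aif1 (ENSMUSG00000024397) on chromosome 17 at 35170991 to 35176068, minus strand. Cx3cr1 (ENSMUSG00000052336) is on chromosome 9 at 119901616 to 120069879 and P2ry12 (ENSMUSG00000036353) on chromosome 3 at 59216272 to 59262871, both on the minus strand. Itgam shares 3450 exonic bases with the annotated locus Gm49368 on the same strand, but that locus is not among the counted genes, so no read was assigned to it.

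PU.1, the product of Spi1, is the master regulator of the myeloid lineage and binds DNA around a GGAA core. The bases ahead of the members' start sites were searched for AGGAAG, a frequent core of PU.1 and other ETS family sites, on both strands. RefSeq promoters of build GRCm38.p6 were searched for 7 members (C1qb, C1qc, Aif1, Cx3cr1, Trem2, P2ry12 and Itgam). Csf1r, C1qa and Tyrobp were not searched, so the counts below do not describe the full list of members. The 250 bases before the start held AGGAAG in 5 of the 7 searched members, and in 29.5% of the 32851 promoters searched. Aif1 and Cx3cr1 had no match. Annotated exons covered all 250 bases of the window for P2ry12 and Cx3cr1, 151 for C1qc and 16 for Aif1, so the matches of P2ry12 and C1qc are in windows that hold exons. The longer GAGGAAGT, which contains AGGAAG, was found in C1qc alone of the 7, against 2.44% of the promoters searched. A match describes the letters in these windows and shows no binding. The 3 promoters with a match and no annotated exon in the window are shown as examples, in the direction of transcription, with the match in capitals (CTTCCT is AGGAAG read on the other strand). C1qb is chr4:136886201-136886450 on the minus strand, Trem2 is chr17:48346151-48346400 on the plus strand and Itgam is chr7:128062390-128062639 on the plus strand.
C1qb: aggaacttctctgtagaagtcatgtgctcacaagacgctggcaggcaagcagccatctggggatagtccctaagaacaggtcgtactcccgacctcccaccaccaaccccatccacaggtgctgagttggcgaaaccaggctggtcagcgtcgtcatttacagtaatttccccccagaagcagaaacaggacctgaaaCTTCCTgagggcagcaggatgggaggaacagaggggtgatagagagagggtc
Trem2: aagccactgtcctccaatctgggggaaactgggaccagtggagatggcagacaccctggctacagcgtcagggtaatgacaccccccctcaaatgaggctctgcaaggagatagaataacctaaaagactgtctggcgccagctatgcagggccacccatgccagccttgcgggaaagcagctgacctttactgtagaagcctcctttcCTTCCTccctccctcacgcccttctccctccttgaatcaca
Itgam: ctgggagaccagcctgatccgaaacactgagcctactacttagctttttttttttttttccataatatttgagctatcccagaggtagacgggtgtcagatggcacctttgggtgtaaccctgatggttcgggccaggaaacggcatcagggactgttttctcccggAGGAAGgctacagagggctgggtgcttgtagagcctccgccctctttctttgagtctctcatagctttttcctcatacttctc

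All 10 genes were detected in every library, at low levels. Their summed level was 30.4 to 119 CPM, with a median of 61.9 CPM, and it amounted to 0.423 to 1.16% of the summed level of the 10 astrocyte markers in the same library (median 0.63%). Per kb of exonic length, Tyrobp, the signalling adaptor with an ITAM motif, was highest in 6 h controls at 13 ± 2.66 CPM per kb (SD, n = 4). The chains of C1q followed, with 8.75 ± 1.49 for C1qa, 5.52 ± 1.52 for C1qb and 4.18 ± 1.07 CPM per kb for C1qc (SD, n = 4 each). Itgam, which encodes the CD11b chain of complement receptor 3, was next at 2.15 ± 0.188 CPM per kb. Trem2 and Csf1r were then close together, at 1.39 ± 0.224 and 1.38 ± 0.205 CPM per kb. The lowest levels were those of Cx3cr1, the fractalkine receptor (0.532 ± 0.122), Aif1, the actin-binding protein known as Iba1 (0.458 ± 0.19), and P2ry12, the ADP receptor of resting microglia (0.21 ± 0.0654 CPM per kb, SD, n = 4).

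This order was shared by most libraries. Tyrobp stood above C1qa, C1qa above C1qb, C1qc above Itgam and Csf1r above Cx3cr1 in all 23 libraries, C1qb above C1qc and Itgam above Trem2 in 22, and Aif1 above P2ry12 in 20. Trem2 exceeded Csf1r in only 6 of 23 libraries and Cx3cr1 exceeded Aif1 in 14, so those neighbours did not keep an order. Among 6 h controls the ranges of neighbours were apart for C1qc and Itgam, for Itgam and Trem2 and for Csf1r and Cx3cr1, and overlapped for the other 6 pairs. Raw counts were 4 to 31 per library for Aif1, 5 to 33 for P2ry12 and 12 to 135 for Cx3cr1, so these 3 genes had the least precise values. The other 7 genes had 34 or more counts in every library.

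**Figure D1:**
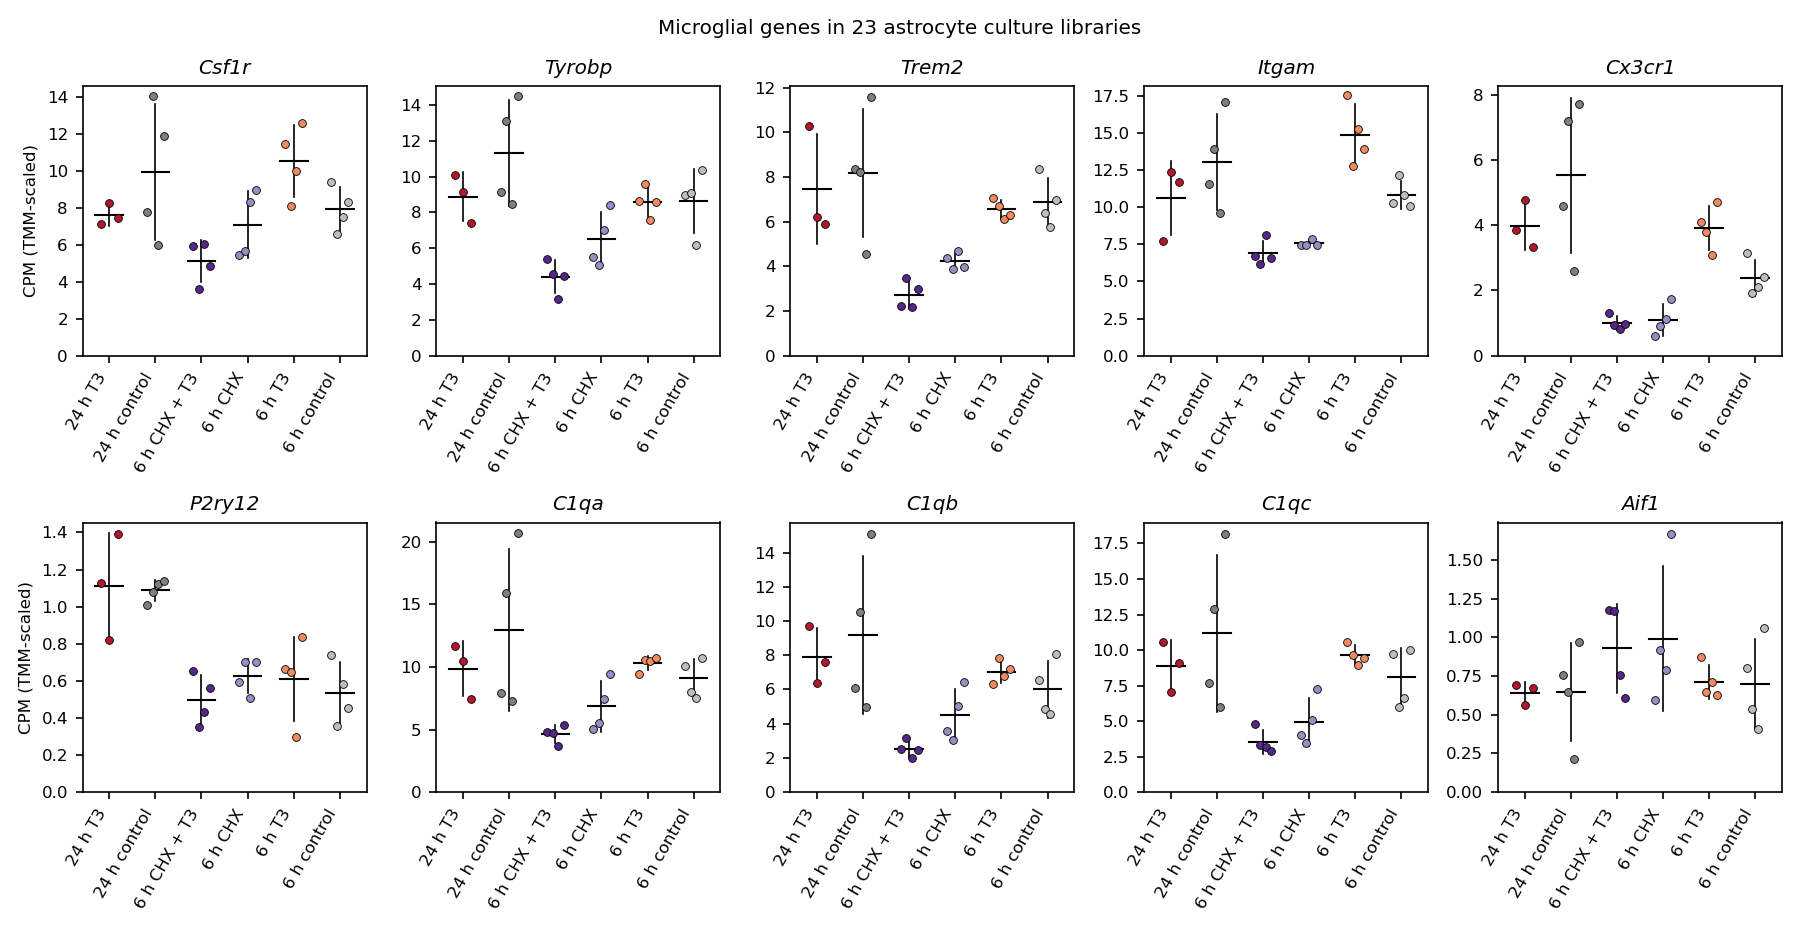
CPM of each of the 10 genes (y axis, linear, own scale per panel) by group (x axis), with 1 point per library and a horizontal line and bar for the group's mean and SD. CHX with T3 has the lowest mean for all genes but Aif1, Aif1 and P2ry12 are at most 1.67 CPM everywhere, and the 24 h controls have the widest spread for most genes.

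The first comparison asked whether the microglial genes respond to 6 h of T3. None of the 10 was called, which means a Benjamini-Hochberg adjusted p under 0.05 in edgeR's quasi-likelihood F test over all 16087 genes tested, where 3.77% of genes were called (2.61% higher and 1.16% lower). DESeq2 called none of them either, and 2 had an unadjusted p under 0.05 in edgeR. Of the log2 fold changes 8 were above 0, that of Tyrobp was 0.00 and that of Trem2 was −0.06, and their median was 0.22, against 0 over all genes. In bulk RNA, fewer cells of a type and less RNA per cell cannot be told apart, here and in all comparisons that follow. Lane 5 held both groups in full.

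Itgam, whose product pairs with Itgb2 to bind complement fragments and matrix, had 17.6, 12.8, 15.3 and 13.9 CPM in T3 libraries, against 10.3, 12.2, 10.8 and 10.1 CPM in 6 h controls. Every T3 library lay above every control, as was the case for 6.71% of all genes in this direction. The log2 fold change was 0.46 ± 0.15 (SE, adjusted p = 0.0849). Cx3cr1, the receptor for the neuronal and astrocytic chemokine Cx3cl1, had 4.10, 3.79, 3.07 and 4.70 CPM in T3 libraries, against 3.16, 1.91, 2.09 and 2.42 CPM in controls. The groups met only where T3 replicate 3 fell under control replicate 1, and the log2 fold change was 0.72 ± 0.28 (SE, adjusted p = 0.174). When the T3 and control libraries of 6 h alone were fitted, both genes were called, Itgam at 0.45 log2 (adjusted p = 0.0251) and Cx3cr1 at 0.71 (adjusted p = 0.0425). The share of all genes called in that smaller fit is not given, so these 2 calls cannot be set against it.

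Csf1r, the receptor for the survival factors Csf1 and Il34, is encoded by ENSMUSG00000024621 on chromosome 18 at 61100598 to 61132149, plus strand, where 873 exonic bases overlap Hmgxb3 on the other strand. The library kit marks no strand, so reads from those bases cannot be assigned to one gene or the other. Csf1r had 11.5, 8.13, 10.0 and 12.6 CPM in T3 libraries, against 9.40, 6.62, 7.51 and 8.33 CPM in controls. These groups overlapped, and the log2 fold change was 0.41 ± 0.21 (SE, adjusted p = 0.34). The log2 fold changes of C1qa, C1qb and C1qc were 0.19 ± 0.25, 0.24 ± 0.27 and 0.27 ± 0.26 (SE). For Tyrobp the 95% interval of the change ran −0.39 to 0.39, and for Trem2 −0.50 to 0.38. Aif1 (0.06 ± 0.38) and P2ry12 (0.20 ± 0.30) had the widest errors. Of 25 further genes shared by myeloid cells none was called and the median log2 fold change was 0.18, and of 8 other homeostatic microglial genes none was called and the median was 0.01. Among 10 ligands and signalling partners of the receptors, 1 rose, Cx3cl1 at 0.18 ± 0.05 log2 (adjusted p = 0.0398).

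After 24 h of T3 no member was called in edgeR or DESeq2, and none had an unadjusted p under 0.05, while 7.09% of all genes were called (4.41% higher and 2.68% lower). The median log2 fold change of the members was −0.31, against 0 over all genes, and 8 of 10 values were below 0. C1qa, the first chain of C1q, had 11.7, 10.5 and 7.41 CPM in 24 h T3 libraries, against 7.92, 15.9, 7.29 and 20.7 CPM in 24 h controls. The T3 libraries lay inside the range of the controls, which split into a high and a low pair. Tyrobp had 10.1, 9.13 and 7.41 CPM with T3, against 9.12, 13.1, 8.46 and 14.5 CPM in controls, with the same split. The log2 fold changes were −0.41 ± 0.26 for C1qa and −0.36 ± 0.20 for Tyrobp (SE, adjusted p = 0.403 and 0.308). Cx3cr1, at 3.84, 4.77 and 3.33 CPM with T3 against 4.59, 7.19, 2.61 and 7.71 CPM in controls, had the lowest value of the 10, −0.48 ± 0.27. The others lay between, with Csf1r at −0.38 ± 0.23, C1qc at −0.33 ± 0.27, Itgam at −0.29 ± 0.16, C1qb at −0.23 ± 0.28, Trem2 at −0.15 ± 0.22, Aif1 at 0.01 ± 0.41 and P2ry12 at 0.05 ± 0.26 (SE).

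The high pair of 24 h controls bears on most of these values. For Aif1 and Trem2, however, control replicate 2 was below replicate 1. P2ry12 had no such split, at 1.01, 1.08, 1.12 and 1.14 CPM in control replicates 1 to 4. Without control replicate 4 the members' median was −0.04, and without replicates 2 and 4 together it was 0.17, with no member called. In the same pair, several other lists were also higher, though not all. The summed level of 25 pan-myeloid genes was 599 and 640 CPM in replicates 2 and 4 against 429 and 386 CPM in replicates 1 and 3, that of the complement genes 450 and 470 against 228 and 209, that of the oligodendrocyte lineage 1060 and 1140 against 876 and 822, and that of the neuron markers 192 and 206 against 158 and 148 CPM. The astrocyte markers summed to 10700 and 10300 CPM in that pair, against 9260 and 8870 CPM in the other. The vascular and meningeal genes were lower there, at 2100 and 2090 CPM against 2290 and 2560 CPM. The sum of the other homeostatic microglial genes, at 339 and 353 CPM against 346 and 357 CPM, did not separate the pairs. Sall1, which other cells of the culture can hold too, made up much of that sum in 6 h controls. Fcrls of the same list, at 2.74 CPM on average, varied within groups with the members' mean (Pearson r = 0.92 over 23 libraries). The part of this difference in the 24 h values was not tested beyond leaving those libraries out. Leaving out 24 h T3 replicate 3, on lane 7, gave a median of −0.23 within lane 6 and no call. Leaving out 24 h T3 replicate 1 gave a median of −0.41 and no call.

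Of the other lists at 24 h, the pan-myeloid and homeostatic genes had no call among 25 and 8, with medians of −0.27 and −0.18. Without 24 h T3 replicate 1, Cd14 of the pan-myeloid list was called lower (−0.64 ± 0.17, adjusted p = 0.0251). In the classical complement list Serping1, the inhibitor of the C1 proteases, fell by 0.78 ± 0.21 log2 (adjusted p = 0.0255), and it was the 1 call among 9 genes. Among 11 genes of activated microglia, Cd9, a tetraspanin, rose by 0.49 ± 0.07 (adjusted p = 6.44e-05) and Gpnmb, a lysosomal glycoprotein, fell by 0.25 ± 0.07 (adjusted p = 0.0286). These 3 calls held without 24 h T3 replicate 1, but without 24 h control replicates 2 and 4 Cd9 alone was called (0.53 ± 0.09, adjusted p = 0.000948), while Serping1 was at −0.23 ± 0.19 (adjusted p = 0.614) and Gpnmb at −0.11 ± 0.07 (adjusted p = 0.44). The T3 effect at 24 h minus that at 6 h was negative for all 10 members, with a median of −0.53, but no member passed the test of that difference in edgeR (0.839% of all genes were called). In that test 3 members had an unadjusted p under 0.05, Cx3cr1 at −1.19 ± 0.39, Csf1r at −0.80 ± 0.31 and Itgam at −0.75 ± 0.22. Itgam was called with DESeq2 (adjusted p = 0.0425), and Itgam and Cx3cr1 without 24 h control replicate 3 (adjusted p = 0.0277 and 0.0246). Without 24 h control replicates 2 and 4 the median of these differences was 0.06.

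**Figure D2:**
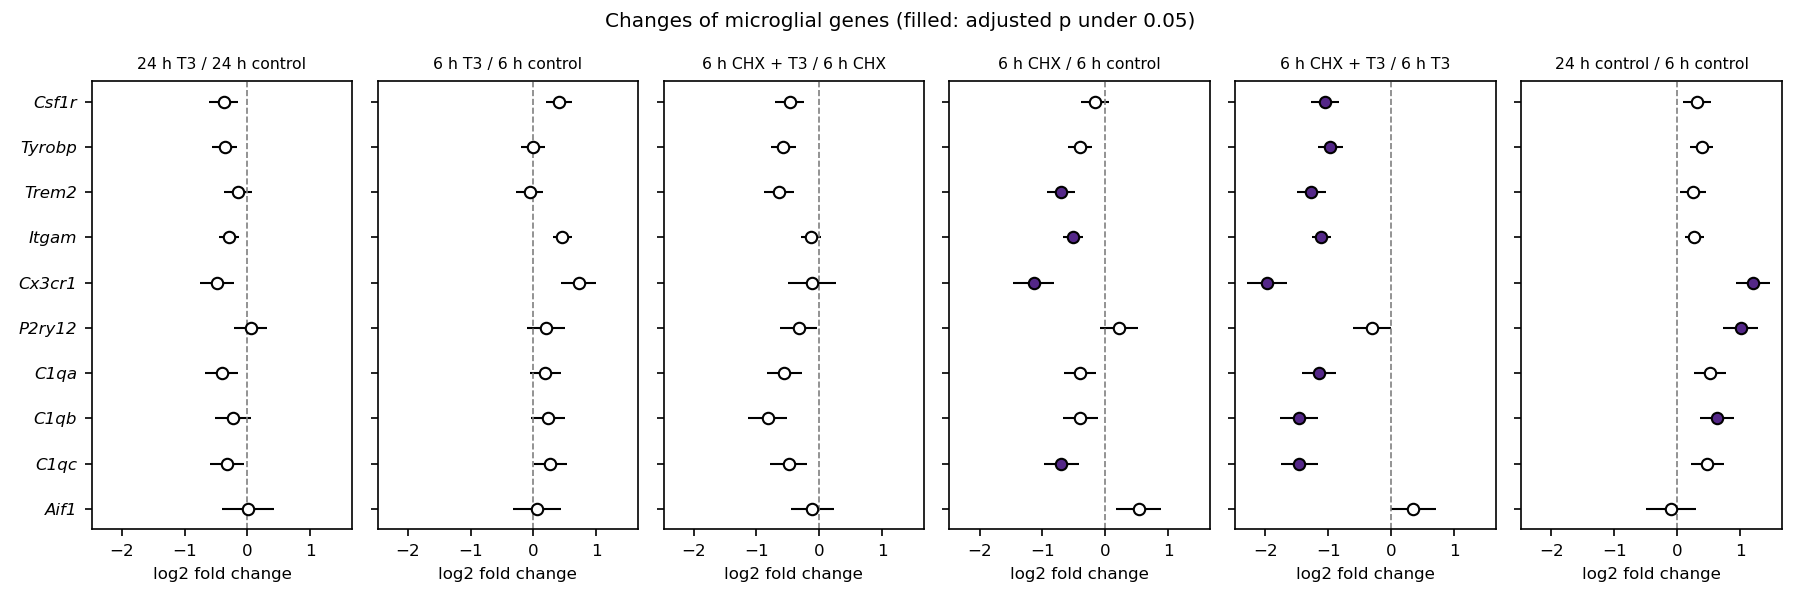
Log2 fold change of each gene (x axis, with the standard error as a bar) in 6 comparisons, with filled points for an adjusted p under 0.05. The calls lie in the CHX comparisons, all below 0 (4 with CHX alone and 8 with CHX and T3), and in the 24 h against 6 h controls, all above 0 (3).

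CHX alone was compared with the 6 h control to see which of these RNAs are held or lost when protein synthesis is blocked. Cx3cr1, Trem2, C1qc and Itgam fell, no member rose, and 6 did not pass the test. In this comparison 67.5% of all genes were called, 37.0% higher and 30.6% lower, so 4 of 10 lower is close to the share among all genes. The members' median log2 fold change was −0.40, against 0.06 over all genes. CHX replicate 4 was on lane 6 and all other libraries on lane 5. Without it, which leaves a comparison within lane 5, 5 members fell and the median was −0.57. That library also had the highest summed levels of the CHX group, 56.1 CPM of the members against 36.7 to 47.9 CPM in the other 3, 508 CPM of the complement genes against 310 to 319 CPM, and 9040 CPM of the astrocyte markers against 7450 to 7770 CPM.

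Cx3cr1 had 0.595, 0.916, 1.13 and 1.73 CPM in CHX libraries, against 3.16, 1.91, 2.09 and 2.42 CPM in controls. The groups did not overlap, and the log2 fold change was −1.14 ± 0.33 (SE, adjusted p = 0.0042). Trem2, the lipid-sensing receptor that signals through Tyrobp, had 4.37, 3.88, 4.67 and 3.99 CPM in CHX libraries, against 8.35, 6.38, 5.76 and 6.97 CPM in controls. Again every CHX library was lower, and Trem2 fell by 0.70 ± 0.22 log2 (SE, adjusted p = 0.00672). Itgam had 7.44, 7.49, 7.88 and 7.45 CPM with CHX, against 10.3, 12.2, 10.8 and 10.1 CPM in controls, and fell by 0.52 ± 0.16 log2 (adjusted p = 0.0051). Its CHX libraries were close together, with an SD of 0.213 CPM. These 3 were the members with no overlap downward, and 28.4% of all genes met that condition.

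C1qc had 4.02, 3.45, 5.07 and 7.23 CPM with CHX, against 9.71, 5.96, 6.63 and 10.0 CPM in controls. The highest CHX library, replicate 4, lay within the control range. C1qc fell by 0.70 ± 0.28 log2 (adjusted p = 0.0295), but this call was lost without control replicate 1 (adjusted p = 0.092) or 4 (0.0899) and without CHX replicate 1 (0.0829) or 2 (0.0986). C1qa and C1qb both had −0.40 log2 (± 0.26 and ± 0.28 SE, adjusted p = 0.173 and 0.217), and their CHX libraries overlapped the controls. Tyrobp, at 5.51, 5.06, 7.04 and 8.42 CPM with CHX against 8.97, 9.07, 6.17 and 10.4 CPM in controls, missed the threshold at −0.40 ± 0.19 (adjusted p = 0.0657). It was called without CHX replicate 4 (−0.55, adjusted p = 0.0192), without control replicate 3 (−0.54, adjusted p = 0.0173) and with DESeq2 (−0.45, adjusted p = 0.0292).

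Csf1r stood at 5.46, 5.65, 8.33 and 9.01 CPM with CHX, against 9.40, 6.62, 7.51 and 8.33 CPM in controls. Its groups overlapped widely, and its log2 fold change of −0.16 ± 0.22 had a 95% interval of −0.63 to 0.30. Aif1 and P2ry12 had values above 0, at 0.53 ± 0.36 and 0.22 ± 0.30 log2 (adjusted p = 0.207 and 0.551). Aif1 had 0.595, 0.916, 0.788 and 1.67 CPM with CHX against 0.804, 0.537, 0.407 and 1.06 CPM in controls, and P2ry12 had 0.595, 0.700, 0.507 and 0.701 CPM against 0.742, 0.358, 0.582 and 0.454 CPM. The groups of both genes overlapped, and the 95% intervals ran −0.24 to 1.30 for Aif1 and −0.42 to 0.86 for P2ry12.

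When T3 was present in both arms, CHX lowered 8 of the 10 members. Csf1r, Cx3cr1, Trem2, Tyrobp, Itgam, C1qa, C1qb and C1qc all fell, each by 0.97 log2 or more, and in each of them all 4 CHX with T3 libraries lay below all 4 T3 libraries. Over all genes 67.3% were called, 36.3% higher and 31.0% lower, and 29.2% had no overlap downward. The members' median log2 fold change was −1.13, against 0.04 over all genes. The CHX with T3 libraries were all on lane 6 and the T3 libraries all on lane 5, so CHX and lane cannot be told apart in this comparison alone. A lane term for lanes 5 and 6 rests on 1 library alone, CHX replicate 4, which is the sole library to part its group between them and was high in several lists. It therefore gives no independent estimate of lane here or in the other comparisons (with it, 8 members fell and the median was −1.51).

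Cx3cr1 fell furthest. It had 1.31, 0.937, 0.811 and 0.966 CPM with CHX and T3, against 4.10, 3.79, 3.07 and 4.70 CPM with T3. That is −1.97 ± 0.32 on the log2 scale (SE, adjusted p = 5.97e-06), or 0.255 of the T3 level. All 4 CHX with T3 libraries were below the lowest library of any group without CHX. C1qb had 2.55, 3.16, 2.0 and 2.49 CPM with CHX and T3, against 6.31, 7.86, 6.79 and 7.20 CPM with T3. C1qc had 4.77, 3.34, 3.19 and 2.90 CPM, against 10.6, 9.65, 8.92 and 9.44 CPM. Both of these chains fell to 0.362 and 0.364 of the T3 level, by 1.47 ± 0.30 and 1.46 ± 0.29 log2. C1qa, at 4.83, 4.74, 3.68 and 5.34 CPM against 9.48, 10.6, 10.5 and 10.7 CPM, fell by 1.15 ± 0.27 (adjusted p = 0.000538).

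The receptors and the adaptor fell by similar amounts. Trem2 had 2.22, 3.46, 2.16 and 3.00 CPM with CHX and T3, against 7.07, 6.72, 6.14 and 6.31 CPM with T3 (−1.27 ± 0.23, adjusted p = 3.1e-05). Tyrobp had 5.42, 4.57, 3.19 and 4.47 CPM, against 8.66, 9.59, 7.56 and 8.56 CPM (−0.97 ± 0.20, adjusted p = 0.000141). Every one of these libraries was thus lower with CHX. Csf1r had 5.94, 3.63, 6.05 and 4.88 CPM, against 11.5, 8.13, 10.0 and 12.6 CPM (−1.05 ± 0.22, adjusted p = 0.000209). Itgam had 6.72, 6.15, 8.11 and 6.61 CPM, against 17.6, 12.8, 15.3 and 13.9 CPM (−1.11 ± 0.15, adjusted p = 6.78e-07). Aif1 and P2ry12 again did not pass, at 0.35 ± 0.36 and −0.31 ± 0.30 log2 (adjusted p = 0.396 and 0.371). All 8 calls held when any library of the comparison was left out. The 4 genes that fell with CHX alone were among the 8 that fell with CHX and T3. Those comparisons share no library, but both come from the same fit. The share of all genes lower in both is not given, so this overlap cannot be set against it.

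Set directly against CHX alone, CHX with T3 changed no member past the threshold in edgeR or DESeq2, while 1.29% of all genes were called (1.16% higher and 0.131% lower). All 10 log2 fold changes were below 0, with a median of −0.48 against −0.01 over all genes, and 3 had an unadjusted p under 0.05. Those were C1qb (−0.82 ± 0.31, adjusted p = 0.253), Tyrobp (−0.57 ± 0.20, adjusted p = 0.227) and Trem2 (−0.64 ± 0.24, adjusted p = 0.253). For Trem2 the CHX with T3 libraries, at 2.22, 3.46, 2.16 and 3.00 CPM, all lay below the CHX libraries, at 4.37, 3.88, 4.67 and 3.99 CPM, as did 5.17% of all genes. The remaining members were at −0.56 ± 0.28 (C1qa), −0.49 ± 0.30 (C1qc), −0.47 ± 0.23 (Csf1r), −0.33 ± 0.30 (P2ry12), −0.13 ± 0.16 (Itgam), −0.12 ± 0.38 (Cx3cr1) and −0.11 ± 0.34 (Aif1). The T3 effect with CHX minus that without it was negative for all 10 members, with a median of −0.67. No member passed the test of that difference in edgeR or DESeq2 (1.22% of all genes were called), and 3 had an unadjusted p under 0.05, Csf1r (−0.88 ± 0.31), C1qb (−1.07 ± 0.41) and Itgam (−0.59 ± 0.22). Itgam was called when only the 6 h libraries were fitted (−0.58, adjusted p = 0.0418). CHX with T3 was on lane 6 and 3 of the 4 CHX libraries on lane 5, so T3 and lane are largely confounded within the CHX arms.

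The lists of unstable and stable RNAs moved apart under CHX, and the members' median lay below 0 as did that of the stable list. Short-lived RNAs, such as those of immediate early genes, are known to accumulate when protein synthesis is blocked. Of 14 such genes 11 rose and 1 fell with CHX alone, with a median log2 fold change of 1.76. Tnfaip3, an inhibitor of NF-kB, rose by 4.21 ± 0.09, the stress factor gene Atf3 by 3.78 ± 0.14 and Junb by 2.98 ± 0.13 (adjusted p = 1.34e-21, 4.3e-17 and 5.8e-16). All 12 RNAs listed as long-lived, of glycolysis, translation and the cytoskeleton, fell, with a median of −0.80, among them Tubb5 (−3.02 ± 0.08), Gapdh (−1.78 ± 0.13) and Actb (−1.0 ± 0.06). The members' median of −0.40 with CHX alone and −1.13 with CHX and T3 fell on the side of the long-lived list. With CHX alone so did the medians of the oligodendrocyte lineage (−0.42), vascular and meningeal (−0.36), pan-myeloid (−0.32) and astrocyte lists (−0.29). Those of the neuron (0.17), complement (0.15) and border macrophage lists (0.39) were above 0. The side is thus not particular to the members and does not tell how stable their RNAs are. Half-lives were not measured in this study, the lists rest on general knowledge, and a fall in CPM is relative to a library in which other RNAs rose.

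**Figure D3:**
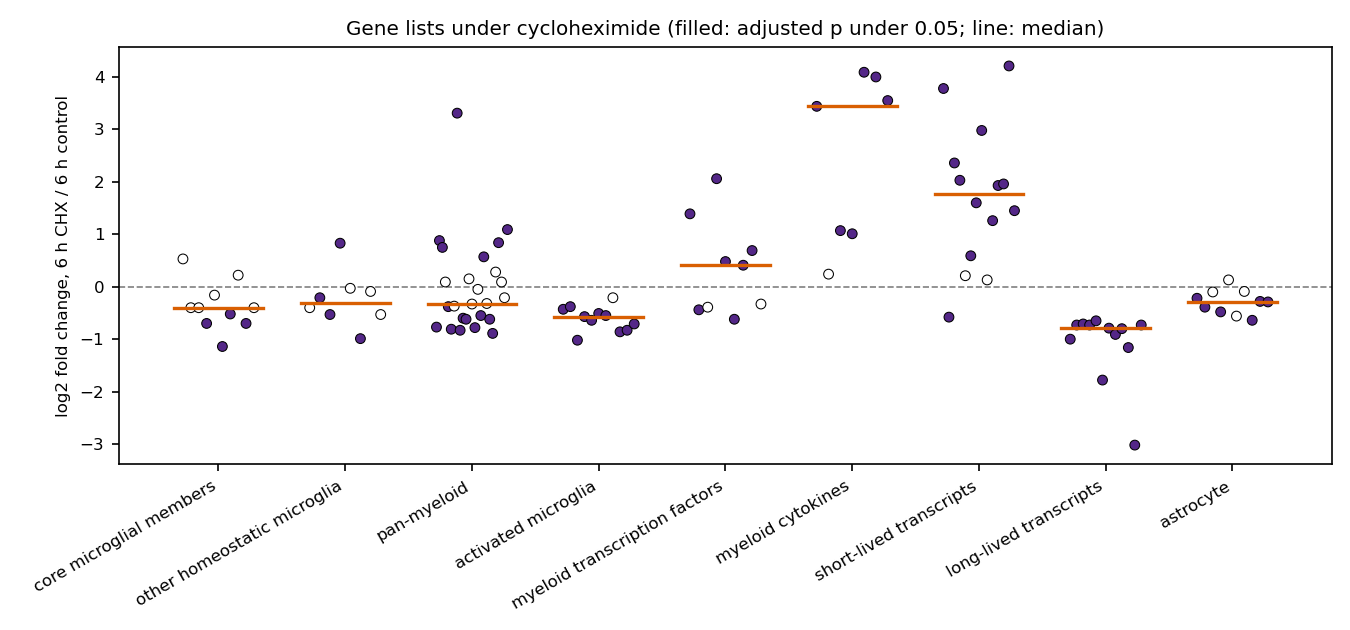
Log2 fold change of CHX alone against the 6 h control (y axis) for each gene of 9 lists (x axis), filled where the adjusted p was under 0.05, with the list's median as a line. Cytokine and short-lived genes lie mostly above 0, with medians of 3.44 and 1.76. The microglial members and the other homeostatic, pan-myeloid, activated microglial, long-lived and astrocyte genes have medians below 0.

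Other RNAs of the myeloid lineage went in both directions under CHX. Of 7 cytokine genes 6 rose and none fell, with a median of 3.44 log2. Ccl2, a monocyte attractant, had 194 ± 36.6 CPM with CHX and 18 ± 2.72 CPM in controls (SD, n = 4 each), a change of 3.44 ± 0.12 (SE), and Tnf had 33.7 ± 5.07 CPM and 2.92 ± 0.802 CPM (SD, n = 4 each), a change of 3.55 ± 0.17. Cxcl2 rose by 4.09 ± 0.14 and Il1a by 4.0 ± 0.30 (adjusted p = 6.76e-18 and 1.24e-11). Astrocytes can also make several of these, so they do not mark microglia alone. Of 9 myeloid transcription factors 5 rose and 2 fell, with Irf5 at 2.06 ± 0.17, Bhlhe41 at 1.39 ± 0.05, Runx1 at 0.69 ± 0.14 and Mef2c at 0.41 ± 0.08. With CHX and T3, 4 of these factors rose and 4 fell.

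Among 25 pan-myeloid genes 6 rose and 10 fell with CHX alone, with a median of −0.32. Ctss, a lysosomal protease (−0.83 ± 0.11), Mpeg1, a pore-forming protein of phagosomes (−0.89 ± 0.15), and Adgre1, the F4/80 antigen (−0.77 ± 0.13), fell, while Cd14, a coreceptor for endotoxin, rose by 0.88 ± 0.13. Of 8 other homeostatic genes 3 fell and 1 rose. Sall1, a microglial factor in vivo, fell by 0.99 ± 0.07 and Golm1 by 0.21 ± 0.06, and Hpgds, a prostaglandin synthase, rose by 0.83 ± 0.13. Sall1 had 95.2 ± 4.98 CPM with CHX and 189 ± 15.4 CPM in 6 h controls (SD, n = 4 each). Tmem119, another marker of resident microglia, had 0.64 ± 0.176 CPM and 0.922 ± 0.32 CPM. Of 11 genes of activated microglia 10 fell and none rose, among them Cd9 (−1.02 ± 0.07), Lpl (−0.83 ± 0.09) and Ctsb (−0.64 ± 0.06). The activated list summed to 2400 to 4730 CPM per library and the members to 30.4 to 119 CPM. Other cells of the culture can hold RNA of Sall1, Golm1 and the activated list too, and the cell source of these RNAs was not measured. With CHX and T3, 15 of 25 pan-myeloid genes fell and 2 rose (median −0.83), and all 11 activated genes fell (median −0.81).

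Ligands of the member receptors also changed under CHX, though which cells of the culture held their RNA was not measured. Csf1, a ligand of Csf1r, had 2000 ± 111 CPM with CHX and 379 ± 15.4 CPM in controls (SD, n = 4 each), a rise of 2.40 ± 0.06 log2 (adjusted p = 3.77e-21). Il34, the other ligand of that receptor, had 1.93 ± 0.332 CPM with CHX and 5.78 ± 0.207 CPM in controls, a fall of 1.58 ± 0.18 (adjusted p = 3.21e-08). Cx3cl1, the ligand of Cx3cr1, rose by 1.52 ± 0.05, and Adam10, a protease that sheds it, fell by 0.82 ± 0.06. Cx3cl1 was also higher with CHX and T3 than with CHX alone, by 0.21 ± 0.05 (adjusted p = 0.0282). Of 10 astrocyte markers 6 fell and none rose with CHX alone, with a median of −0.29, among them Slc1a3 (−0.28 ± 0.04), Slc1a2 (−0.64 ± 0.13) and Sox9 (−0.29 ± 0.06). Of the lists for other cells in the culture, 2 of 9 oligodendrocyte lineage genes rose and 4 fell, 1 of 8 neuron genes rose and 1 fell, 4 of 9 vascular and meningeal genes fell and none rose, and of 3 border macrophage genes that passed the low-count filter 1 rose and 1 fell. In the classical complement list 2 of 9 genes rose and none fell with CHX alone, and 5 fell and none rose with CHX and T3. Whether shifts in these cells had a part in the members' values was not tested.

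Members were also set against the summed CPM of C1qa, C1qb and C1qc in the same library, which removes any factor that scales all of them alike. These ratios are descriptions without a test. Cx3cr1 was 4.72 to 7.59% of the C1q sum with CHX, against 8.42 to 11.9% in 6 h controls, and 8.33 to 10.8% with CHX and T3, against 11.7 to 17.1% with T3. It was therefore lower relative to C1q in every CHX library than in the matching libraries without CHX. Within the CHX arms it was higher with T3 (8.33 to 10.8%) than without (4.72 to 7.59%). Aif1 went the other way, at 4.50 to 7.59% with CHX against 2.17 to 3.68% in controls and 5.69 to 10.4% with CHX and T3 against 2.29 to 3.30% with T3. P2ry12 was 3.13 to 5.38% with CHX and T3, against 1.13 to 3.05% with T3, and Tyrobp 36.0 to 44.6% against 28.9 to 34.2%. Csf1r, Trem2 and Itgam overlapped between groups in each of the 6 comparisons. Few counts lie behind the Aif1 and P2ry12 ratios, and the 3 C1q genes set the denominator. With CHX and T3 these 3 fell by 1.15 (C1qa), 1.47 (C1qb) and 1.46 log2 (C1qc). A gene that fell less, such as Tyrobp at −0.97, is therefore higher in this ratio though its CPM fell. The share of all genes whose ratio separates the groups is not given, so these separations cannot be set against it.

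**Figure D4:**
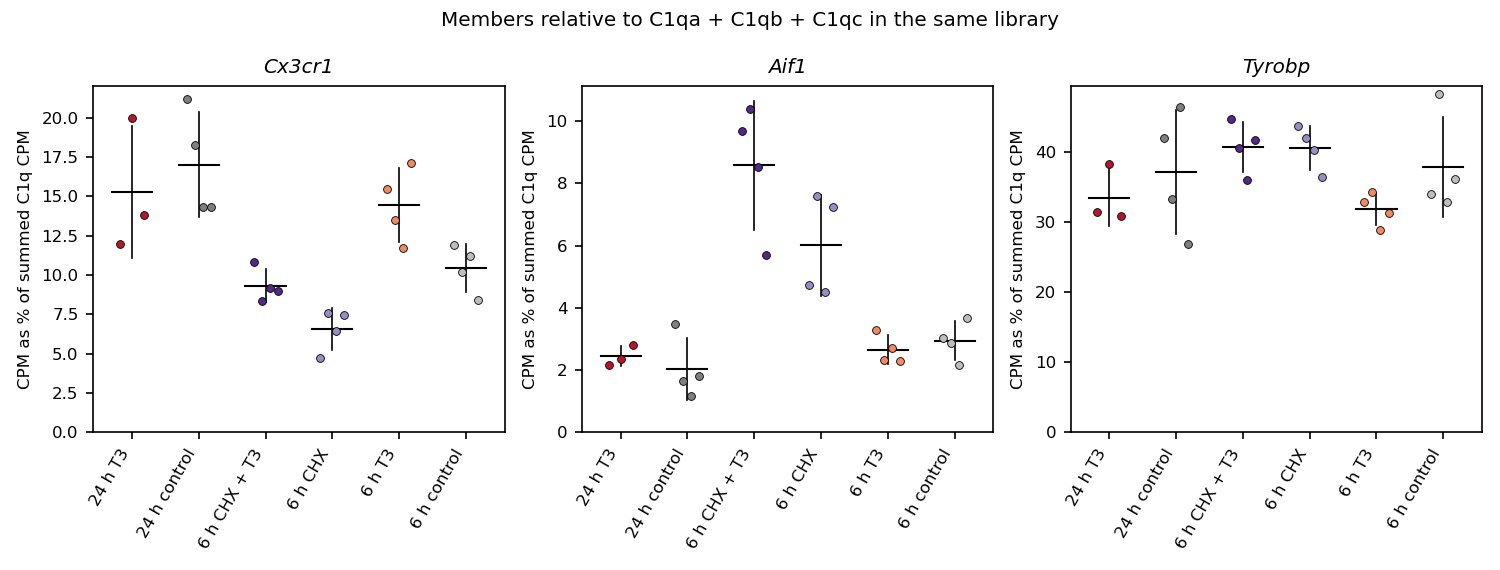
Cx3cr1, Aif1 and Tyrobp as a percent of the summed CPM of C1qa, C1qb and C1qc (y axis) by group (x axis), with 1 point per library and the mean and SD. Cx3cr1 is lowest and Aif1 highest in the CHX groups, and no CHX library overlaps its matching group without CHX for either gene.

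Control cultures of 24 h differed from those of 6 h in several members. Cx3cr1, P2ry12 and C1qb were higher at 24 h, none was lower, and the median log2 fold change was 0.44 against 0 over all genes, of which 56.6% were called (28.2% higher and 28.4% lower). P2ry12 had 1.01, 1.08, 1.12 and 1.14 CPM at 24 h, against 0.742, 0.358, 0.582 and 0.454 CPM at 6 h. It was the 1 member with no overlap between the times, as 24.8% of all genes were in this direction, and it was higher by 1.01 ± 0.28 log2 (SE, adjusted p = 0.00361). Cx3cr1 had 4.59, 7.19, 2.61 and 7.71 CPM at 24 h, against 3.16, 1.91, 2.09 and 2.42 CPM at 6 h, a change of 1.21 ± 0.27 (adjusted p = 0.000583). Relative to the C1q sum it was 14.3 to 21.2% at 24 h, against 8.42 to 11.9% at 6 h, without overlap. C1qb had 6.10, 10.5, 5.00 and 15.1 CPM, against 6.56, 4.83, 4.54 and 8.10 CPM, a change of 0.63 ± 0.27 (adjusted p = 0.0483). The C1qb call was lost with DESeq2 (adjusted p = 0.0502) and with each of 24 h control replicates 2 and 4 and 6 h control replicates 1, 2 and 3 left out (adjusted p = 0.0609 to 0.36). Of the members that did not pass, C1qa was at 0.52 ± 0.25, C1qc at 0.48 ± 0.26, Tyrobp at 0.39 ± 0.18, Csf1r at 0.32 ± 0.22, Itgam at 0.27 ± 0.15, Trem2 at 0.25 ± 0.21 and Aif1 at −0.10 ± 0.40.

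All 24 h controls were on lane 6 and all 6 h controls on lane 5, so time and lane cannot be told apart. With a lane term, which rests on CHX replicate 4 alone, no member was called. Without 24 h control replicates 2 and 4, P2ry12 alone was called, Cx3cr1 was at 0.58 (adjusted p = 0.0971), C1qb reversed to −0.10 and the median was −0.09. The count of called members was 2 without either of these replicates singly, 5 without 24 h control replicate 1 and 9 without replicate 3, the lowest library. Of 8 other homeostatic microglial genes 5 were higher at 24 h and none lower, among them Hpgds (1.39 ± 0.13), Olfml3 (0.58 ± 0.12) and Tmem119 (1.06 ± 0.28, adjusted p = 0.00212). Of 25 pan-myeloid genes 10 were higher and 1 lower, among them Coro1a (1.23 ± 0.25) and Lcp1 (0.87 ± 0.13). Of 7 cytokine genes 6 were lower, with Ccl2 at −3.42 ± 0.17 and Cxcl2 at −3.59 ± 0.29, and of 11 activated microglial genes 6 were lower and none higher, with Cd9 at −0.44 ± 0.07.

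Within groups most of the members varied together from library to library. Over the 23 libraries, the deviations of log2 CPM from the group mean had a median Pearson r of 0.55 over the 45 pairs of members, and of 0.82 to 0.90 for the 3 pairs within C1q. Pairs with Aif1 or P2ry12 had a median r of 0.28 (−0.15 to 0.78), and the 28 pairs of the other members 0.64 (0.07 to 0.90). P2ry12 was weak with every member, at −0.15 to 0.30. Aif1 reached 0.78 with C1qc and 0.73 with Cx3cr1, but had 0.26 with Itgam and 0.07 with P2ry12. Itgam was weak with Trem2 (0.07) and Tyrobp (0.09) and highest with Csf1r (0.55). The points share libraries, depth and scaling, and no p is attached to these values. In 24 h controls the mean deviation of the 10 genes was −0.19, 0.27, −0.63 and 0.55 log2 in replicates 1 to 4, the widest spread of any group. In CHX libraries it was −0.27, −0.20, 0.07 and 0.39, with the highest value in replicate 4, the library on lane 6.

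The genes outside the list whose deviations were most like the members' mean were Msr1, a macrophage scavenger receptor (r = 0.95 over 23 libraries, 4.38 CPM on average), Lyz2, the lysozyme of myeloid cells (0.92, 146 CPM), Fcrls, an Fc receptor-like gene of mouse microglia (0.92, 2.74 CPM), Spp1, or osteopontin (0.91, 176 CPM), and Gpnmb (0.89, 214 CPM). They were followed by Serpina3n, a protease inhibitor induced in reactive astrocytes (0.89), Ctss (0.88), Lcn2, or lipocalin 2, also known from reactive astrocytes (0.88), Vxn (0.88) and Itih3 (0.87). Of these 10 genes 5 were in one of the myeloid or microglial lists and 5 were in none.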

How the data were processed

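RNA was measured in 23 libraries of astrocyte cultures in 6 groups, taken from the titles. Per the labels' protocols, 200 ng of RNA went into each library and sequencing gave single reads of 50 nt. The kit they name, NEBNext Ultra, marks no strand. Each deposited file gives the authors' raw read counts of 1 library, with Ensembl genes as lines. The tools named in the submitters' processing notes are HTSeq, TopHat, Bowtie, FastQC, bcl2fastq and edgeR, with GRCm38 as the genome build. The sources used here give no versions, annotation release, counting mode or strand setting. Lines that name no gene stayed out of library sizes and tests. Of all lines' counts per library, 30.7 to 42.3% were alignments that were not unique, 3.75 to 5.81% had no feature and 1.40 to 1.70% were ambiguous. Reads that align to several places were thus not counted, which can lower genes with near-identical copies.

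GENCODE M21 held 36345 of the 38293 identifiers and 183 of the 184 listed symbols in 16 lists, with C1rb unmatched, and gave coordinates and exonic lengths. Counts were fitted with edgeR 4.0.16 in R 4.3.3. The function filterByExpr with a minimum count of 10 left 16087 genes, all 10 members among them, and library sizes were scaled by TMM. All 23 libraries entered 1 quasi-likelihood fit of the 6 group means, which left 17 residual degrees of freedom at a biological coefficient of variation of 8.57%. A call needed an adjusted p under 0.05 (Benjamini-Hochberg, over all genes tested), and standard errors are the log2 change over the root of its F statistic. CPM were computed here on the scaled library sizes. The procedure was checked on simulated counts.

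The fits were repeated with DESeq2 1.42.0, with edgeR's RLE factors, without the low-count filter, with blocks by replicate number or description letter, with lane as a covariate, on the compared groups alone, after removing a trend with exonic length, and with libraries left out. Replicates differed beyond sampling noise in every pair (chi-square over its degrees of freedom 1.73 to 38.4), and no files were identical. The 24 h values of listed genes outside the members, with libraries left out, were added after seeing the data.

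All members are named in each comparison. From each other list the text gives the counts called and up to 4 genes with the smallest adjusted p, and the CPM levels of Sall1 and Tmem119 were chosen after their values were seen. The most alike genes were the 10 with the highest r among those averaging 1 CPM or more. The members and lists were chosen with earlier results of these data known. Results of some listed genes are not reported here.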

Additional observations from a re-analysis of the deposited data

Results flagged for a closer look

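Itgam in 6 h CHX replicate 3, at 7.88 CPM, lay apart from the other 3 CHX libraries, at 7.44 to 7.49 CPM. Its gap to the nearest library was 0.901 of the group's range, above Dixon's 95% critical value of 0.829 for 4 samples. The group's whole range was narrow, and all of its libraries were below every 6 h control. Of 50 groups of 4 libraries examined in this way, this was the 1 that stood out, where chance marks about 1 in 20.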

How the results depend on the processing

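Of 1450 values of single members under the alternatives, 15 lost a call, 25 gained one and 2 that were called reversed. Another 24, not called in either fit, changed sign by more than their standard error. The other 1384 kept their side of the threshold, and 36 of these, not called, changed sign by less than their standard error. The reversals were C1qb in 24 h against 6 h controls, at −0.10 both when lane was a covariate (a term that rests on CHX replicate 4 alone) and when 24 h control replicates 2 and 4 were left out. In that comparison the main count of 3 called members became 0 with lane as a covariate, 1 without those replicates, and 2 to 9 when 1 library was left out. For T3 at 6 h 2 members were called when only its groups were fitted, and for the T3 effect with minus without CHX 1 was. For the T3 effect at 24 h minus 6 h DESeq2 called 1, and leaving out 1 library gave 0 to 2. Counts stayed within 1.5 times the main count under all other alternatives run. With 1 library left out, CHX alone gave 3 to 5 called members, CHX with T3 gave 8 throughout, and T3 at 6 h, T3 at 24 h and T3 with CHX gave 0. Where a cause is not shown by the alternative itself, it was not tested. The shares of all genes called under the alternatives are not given.

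Replicate numbers gave at most a weak pairing of the libraries. The correlation of same-numbered deviations ran −0.09 to 0.13, and no comparison had every pair above 0.1. For T3 with CHX and for CHX alone the same number was still the best match of replicates 2, 3 and 4 (r of 0.04 to 0.08). For T3 at 6 h it was the best match of no replicate. Weak pairing is thus not excluded. With a replicate block by number, 5 members were called for CHX alone, 8 for CHX with T3, 4 for 24 h against 6 h controls and 0 for the other comparisons. With a block by the letter in the descriptions the counts were 4, 8, 3 and 0. Depth limits precision most for Aif1 and P2ry12, with no more than 33 counts in any library.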
